A study of Mus musculus with 2 samples.

Results

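The genes described are 10 imprinted genes that act on prenatal growth or on the cell cycle: Igf2, H19, Dlk1, Meg3, Grb10, Cdkn1c, Peg3, Mest, Igf2r and Plagl1. They were chosen by symbol, and each matched 1 of the 27998 genes of the deposited count matrices. Their RNA was measured by droplet-based single-cell RNA sequencing (scRNA-seq), which counts unique molecular identifiers (UMIs), short random tags that mark each captured RNA molecule. The cells came from the liver of 1 wild-type C57BL/6 mouse embryo (C57BL/6J in the study's methods) at E12.5 (E for embryonic day), and carried no transgene, treatment or deletion. After enzymatic digestion, sorting had removed debris, dead cells and doublets, and the suspension was loaded as 2 technical replicate libraries. With 1 liver, the libraries measured the repeatability of the capture and not the variation between embryos, so no test between groups was possible and no p-value is given. The cell types were those of the authors' table, which came from clusters of these same counts, so each level by cell type is a description.

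Imprinted genes are transcribed mainly from the copy inherited from a single parent, because methylation set in the egg or the sperm marks an imprinting control region nearby. The paternally expressed members of this group include Igf2, Dlk1, Peg3, Mest and Plagl1, whereas H19, Meg3, Cdkn1c and Igf2r are mainly maternally expressed, and the parental copy used for Grb10 depends on the tissue. Igf2 encodes a growth factor that the liver secretes, and Igf2r encodes the receptor that takes IGF2 up for degradation. Many of these genes are known to be high in fetal organs and to be silenced in the liver after birth. UMIs carry no parental origin in an inbred embryo, so the copy used could not be told apart here.

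The members lie on 6 chromosomes, with positions given here in the GRCm38 build with GENCODE vM21 gene models. On chromosome 7, H19 (142575529 to 142578143, minus strand) and Igf2 (142650766 to 142666816, minus strand) are neighbours with 72622 bases between them, and Cdkn1c (143458339 to 143461050, minus strand) lies 791522 bases further. Peg3 occupies 6703892 to 6730431 on the minus strand of the same chromosome. On chromosome 12, Dlk1 (109452823 to 109463336) and Meg3 (109541001 to 109571726) are both on the plus strand with 77664 bases between them. Grb10 is on chromosome 11 (11930508 to 12038683, minus strand), Mest on chromosome 6 (30723547 to 30748465, plus strand), Igf2r on chromosome 17 (12682406 to 12769664, minus strand) and Plagl1 on chromosome 10 (13060504 to 13131694, plus strand). H19 and Meg3 are annotated as lincRNA genes, and the other 8 as protein-coding. For Igf2, Meg3, Cdkn1c, Mest and Igf2r, the annotation places another gene on the opposite strand within the same span, such as Airn at Igf2r and Copg2 at Mest. The sources used here do not give the strand setting of the count, so reads of such partners may be included.

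MicroRNAs, small RNAs that this assay does not count, are carried by 4 of the transcripts. They are shown because they are products of the same host transcripts, and their sequences are those of RefSeq for GRCm38.p6. H19 holds miR-675 and Meg3 holds miR-770 and miR-1906 in exons, whereas miR-483 lies in an intron of Igf2 and miR-335 in an intron of Mest. Capitals mark the seed, bases 2 to 8, and no seed is shared between them.
miR-675-3p (H19): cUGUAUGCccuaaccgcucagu
miR-675-5p (H19): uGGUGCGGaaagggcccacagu
miR-483-3p (Igf2): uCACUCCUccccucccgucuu
miR-483-5p (Igf2): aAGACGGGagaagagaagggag
miR-1906 (Meg3): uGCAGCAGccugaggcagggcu
miR-770-3p (Meg3): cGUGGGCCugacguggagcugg
miR-770-5p (Meg3): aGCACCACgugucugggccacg
miR-335-3p (Mest): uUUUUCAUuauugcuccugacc
miR-335-5p (Mest): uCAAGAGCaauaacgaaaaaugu

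The promoters of Meg3 and Mest are shown because these genes marked opposite cell types, with Meg3 led by the hepatoblasts and Mest by the endothelium. Both are RefSeq windows of GRCm38.p6 that run from 250 bases before to 50 bases after a transcription start, and capitals mark each CG, the dinucleotide at which imprinting methylation is set. The Meg3 window at chr12:109540746-109541045 on the plus strand holds 13 CGs and TATAAA, searched on both strands, a motif found in 13.6% of the 32851 mouse promoter windows of that length. The Mest window at chr6:30737800-30738099 on the plus strand holds 17 CGs and no TATAAA. The median window of all promoters holds 7 CGs. Among the 8 members with a RefSeq window, the one with the most CGs held between 9 (Dlk1) and 45 (Grb10). These counts describe the sequence, and no methylation was measured.
Meg3 promoter: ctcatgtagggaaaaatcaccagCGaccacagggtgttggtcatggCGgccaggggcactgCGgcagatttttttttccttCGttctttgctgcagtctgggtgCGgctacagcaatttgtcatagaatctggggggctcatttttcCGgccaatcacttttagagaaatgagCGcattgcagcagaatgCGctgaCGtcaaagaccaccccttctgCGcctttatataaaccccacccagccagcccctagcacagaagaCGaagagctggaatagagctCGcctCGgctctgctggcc
Mest promoter: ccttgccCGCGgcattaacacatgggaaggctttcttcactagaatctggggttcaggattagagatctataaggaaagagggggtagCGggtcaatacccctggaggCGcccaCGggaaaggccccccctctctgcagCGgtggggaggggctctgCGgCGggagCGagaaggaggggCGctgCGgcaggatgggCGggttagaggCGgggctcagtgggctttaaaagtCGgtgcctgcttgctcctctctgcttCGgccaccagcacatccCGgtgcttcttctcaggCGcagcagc

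Library 1 had 5480 kept cells with 51969226 UMIs and a median of 6261 UMIs per cell, and library 2 had 5057 cells with 62738015 UMIs and a median of 9774. The shallowest kept cell held 504 UMIs in library 1 and 4387 in library 2. The libraries shared 31 cell barcodes. Levels are given as UMIs per 1000000 UMIs of a cell type in a library (CPM), with exact Poisson 95% confidence intervals (CI), and ratios with exact conditional intervals. Both cover counting error only. The hepatoblast markers fixed for this work, such as Alb and Afp, summed to 56026 and 41153 CPM in the cells called hepatoblasts (Hepa) and to at most 74.1 CPM in any other type, and none of the 9 genes was at 0 in Hepa. The 7 endothelial markers summed to 3347 and 3264 CPM in endothelial cells (EC). The rarest types held few cells, with 33 and 31 Hepa and 20 and 26 EC. Free RNA was read from barcodes with 1 to 50 UMIs. Within the megakaryocyte (Mk) cluster, 10 cells of library 1 and 9 of library 2 held at least 5 UMIs of 12 stromal genes such as Col1a1 and Pdgfra. These cells carried most of the Mk counts of 9 members, so values of that cluster are given below also without them.

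Among the 9 cell types, 8 of the 10 members were highest in Hepa in both libraries, and the remaining 2, Mest and Plagl1, were highest in EC. The Mk cells with at least 5 stromal UMIs had more Cdkn1c and Peg3 than Hepa in both libraries. They also had more Plagl1 than EC. Over the 10277 genes with at least 50 UMIs in each library, Hepa was the highest type for 6.72% and EC for 11.9%. No member had its highest level in a blood cell type, where 0.574% of all genes were highest in EryP, 3.77% in G, 4.36% in Eryb, 6.46% in HSPC, 6.7% in Mo/KC and 6.84% in Mk, and 11.9% in Ery. Together, the members made up 11463 and 8721 CPM of the RNA of Hepa, and 7537 and 6530 CPM of that of EC. In the hematopoietic stem and progenitor cells (HSPC), they made up 239 and 286 CPM, and in the erythroblasts (Eryb) 71.5 and 46.6 CPM. The level of a member was over that of the empty droplets in both libraries in 29 of the 90 pairs of member and cell type, and below it in 32 pairs. Those 29 pairs were 8 in Hepa, 9 in EC, 8 in Mk, 2 in HSPC and 1 each in Ery and EryP, the erythroid progenitors and the primitive erythroid cells of yolk sac origin. Of all genes tested, 17% were over the empty droplets in Hepa, 19.8% in EC, 24.7% in Mk, 38.2% in HSPC, 32.2% in Ery and 0.924% in EryP. No member was over them in G, Mo/KC or Eryb, where 25.4, 22.6 and 3.03% of all genes were. Without the cells with at least 5 stromal UMIs, 22 pairs remained, and Mk kept 1 of its 8, Mest. For that pair, 39 of the 72 Mest UMIs of library 2 came from 1 cell. After each cell had been thinned to 3600 UMIs, with shallower cells left out, at least 50% of the cells of the leading type had a UMI in both libraries for 6 members, which were Igf2, H19, Dlk1, Meg3 and Cdkn1c in Hepa and Mest in EC.

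**Figure D1:**
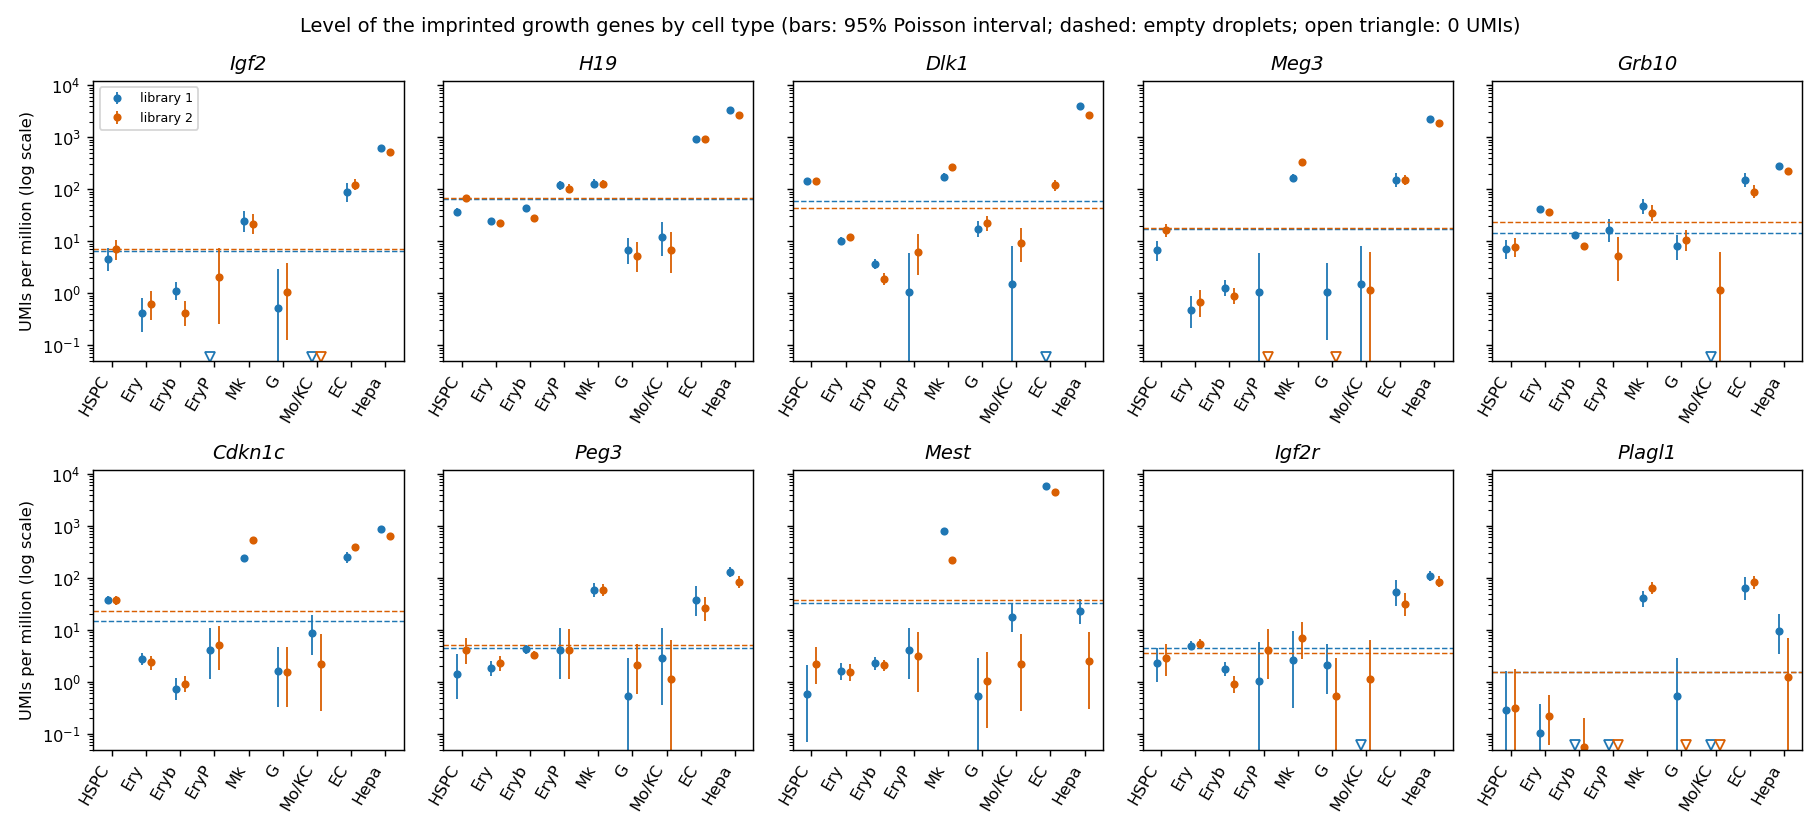
CPM of the 10 members (log axis) in the 9 cell types, with library 1 in blue and library 2 in orange, exact Poisson 95% intervals as bars, and the level of the empty droplets of each library as dashed lines. Hepa is the highest type in 8 panels and EC in those of Mest and Plagl1, while most blood cell types lie at or below the dashed lines.

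Igf2, the growth factor, was measured at 611 CPM (95% CI 552 to 674) in Hepa of library 1 and 520 CPM (471 to 572) in Hepa of library 2, a mean of 565 ± 64.3 CPM (SD, n = 2 libraries). In EC it reached 87.8 and 122 CPM, and in HSPC 4.64 and 7.04 CPM, beside 6.58 and 7.14 CPM in the empty droplets. Hepa stood apart from every other type in both libraries, and the intervals of Hepa and EC did not overlap. Hepa exceeded EC 6.96-fold (4.57 to 11.1) and 4.27-fold (3.30 to 5.59). No Igf2 UMI was found in the monocytes and Kupffer cells (Mo/KC), among 678685 and 885398 UMIs. After thinning, Igf2 was found in 70.1 and 50.9% of Hepa, and in 0.246 and 0.262% of granulocytes (G), a type not known to make it. The unthinned shares were 22 of 33 and 20 of 31 Hepa, at a median of 22391 and 21910 UMIs per cell, against 10550 and 14769 in G.

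Within Hepa, the counts of Igf2 were uneven. Single cells held between 0 and 53 UMIs in library 1 and between 0 and 45 in library 2, with a median of 4 in both. Every Hepa cell with an Igf2 UMI also had an H19 UMI, in 22 cells of library 1 and 20 of library 2, whereas 11 and 10 Hepa had H19 without Igf2. In EC, 10 and 17 cells had both and no cell had Igf2 alone. H19 was found in every Hepa but 1 and in all 20 and 26 EC. Igf2 without H19 was therefore hardly possible in Hepa and not possible in EC.

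Igf2r, the clearance receptor for IGF2, was also highest in Hepa, at 109 CPM (85.2 to 138) and 85.2 CPM (66.3 to 108). EC followed with 53.4 and 31.8 CPM, and Ery, the erythroid progenitors, with 4.98 and 5.45 CPM. Hepa exceeded EC 2.05-fold (1.14 to 3.93) and 2.68-fold (1.58 to 4.79). Among the lower types, the order of Igf2r could not be resolved, since none of the neighbours after Ery differed in both libraries. Of the Hepa with Igf2, 18 of 22 and 14 of 20 also had an Igf2r UMI.

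Grb10 encodes an adaptor that binds the insulin and IGF1 receptors and restrains their signalling. Its level was 281 CPM (242 to 325) and 220 CPM (189 to 255) in Hepa, 153 and 90.0 CPM in EC, and 41.3 and 35.9 CPM in Ery. Hepa exceeded EC 1.84-fold (1.30 to 2.66) and 2.44-fold (1.78 to 3.40). The level in Ery lay over that of the empty droplets (14.7 and 23.0 CPM) in both libraries, and Grb10 was the only member for which this held in Ery. HSPC had 6.96 and 7.68 CPM, below the empty droplets. Mk and Ery had a ratio of 1.13 (0.79 to 1.58) and 0.99 (0.69 to 1.39). Without the cells with stromal UMIs, Mk had 15.2 and 18.1 CPM, and Ery exceeded it 2.72-fold (1.47 to 5.69) and 1.98-fold (1.21 to 3.48).

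H19, a noncoding RNA that is transcribed beside Igf2 and shares its enhancers, was measured in Hepa at 3269 CPM (3131 to 3412) and 2650 CPM (2539 to 2764). EC had 939 and 935 CPM, Mk 129 and 127 CPM, and EryP 119 and 103 CPM. Library 1 was higher than library 2 in Hepa, the libraries overlapped in the other 3 types, and neither Hepa nor EC overlapped with a lower type. Hepa exceeded EC 3.48-fold (3.05 to 3.99) and 2.83-fold (2.58 to 3.12). Without the cells with stromal UMIs, Mk had 13.7 and 7.93 CPM, below EryP. H19 was found in every Hepa but 1, and in all 20 and 26 EC. After thinning, 93.9 and 96.0% of Hepa and 84.8 and 86.6% of EC had a UMI, against 2.12 and 1.76% of G.

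In the blood lineages, EryP stood out for H19 in CPM. At 119 CPM (98.1 to 143) and 103 CPM (83.3 to 125), EryP exceeded Eryb 2.74-fold (2.24 to 3.33) and 3.65-fold (2.94 to 4.49), and it was over the empty droplets (64.3 and 67.9 CPM). It was the only pair of a member and EryP to be so in both libraries. With cells of fewer than 1000 genes or at least 10% mitochondrial UMIs left out, 13 and 11 EryP cells remained, and the ratio to the empty droplets was 2.58 (1.53 to 4.16) in library 1 and 1.30 (0.71 to 2.23) in library 2, so that the call did not hold in library 2. Per cell, EryP held 0.67 and 0.84 H19 UMIs and HSPC 0.60 and 1.01, so that EryP was below HSPC per cell in library 2. HSPC and Eryb could not be ranked for H19, since their ratio was 0.86 (0.71 to 1.03) in library 1 and 2.39 (2.05 to 2.78) in library 2.

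Dlk1 encodes a transmembrane ligand of the Notch family that marks fetal hepatoblasts, and Meg3 is the noncoding RNA made from the other parental copy of the same domain. Dlk1 reached 3919 CPM (3767 to 4075) and 2680 CPM (2569 to 2796) in Hepa, and Meg3 2238 CPM (2124 to 2357) and 1845 CPM (1752 to 1940). For both genes, library 1 was higher than library 2 in Hepa, and no other type overlapped with it. Outside Hepa, the 2 genes parted. Dlk1 had 141 CPM in HSPC of both libraries, over the empty droplets (58.8 and 43.4 CPM), whereas Meg3 had 6.67 and 16.3 CPM there, not over them (17.2 and 17.9 CPM). In EC, Meg3 had 153 and 148 CPM, whereas Dlk1 had no UMI among 262042 in library 1, which allows up to 11.4 CPM. In library 2, EC had 118 CPM of Dlk1, but 66 of its 67 UMIs came from 1 cell that also held 77 stromal UMIs. Without that cell, the level of Dlk1 was 1.89 CPM. The same cell held 29 of the 84 Meg3 UMIs, and without it Meg3 stood at 104 CPM.

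The Dlk1 signal of HSPC was broad. It was present in 118 of 213 and 120 of 208 HSPC, with at most 25 and 31 UMIs per cell, and after thinning in 30.8 and 29.2% of HSPC against 4.02 and 5.38% of G. If all Alb UMIs of HSPC came from free RNA, free RNA would make up at most 3.60 and 2.22% of their UMIs, and would give 7.30 and 3.01 Dlk1 UMIs, against 487 and 440 counted. The same shares would give 0.82 and 0.50 Igf2 UMIs in HSPC, against 16 and 22 counted. Meg3 had 23 and 51 UMIs in HSPC. The levels of Igf2 and Meg3 in HSPC were not over the empty droplets, which does not show that these UMIs were free RNA. HSPC exceeded Eryb for Dlk1 39-fold in library 1 and 74.6-fold in library 2.

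Meg3 was uneven among the hepatoblasts. It was found in 19 of 33 Hepa of library 1 and 27 of 31 of library 2, with up to 147 and 182 UMIs in a cell. The 14 and 4 Hepa without Meg3 were shallower, with a median of 1635 and 7382 UMIs against 28600 and 25747. They also had less Alb (5687 against 14052 CPM, and 5120 against 9151 CPM) and less Dlk1 (1650 against 4397 CPM, and 1456 against 2746 CPM). Their level of the erythroid globin Hbb-bs was higher, at 18127 against 5524 CPM and 49914 against 15586 CPM. In the 6 of the 14 cells with at least 3600 UMIs, Alb stood at 4931 CPM and Hbb-bs at 19171 CPM. Library 2 kept no cell under 4387 UMIs, so cells as shallow as the library 1 median of 1635 had no counterpart there. The part of depth and of globin RNA in the differences between Hepa with and without Meg3 was not tested.

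Cdkn1c encodes p57, an inhibitor of cyclin-dependent kinases that holds cells out of the cell cycle and is known for a role in blood stem cell quiescence. Hepa had 873 CPM (802 to 949) and 635 CPM (581 to 692), and EC 252 and 397 CPM. Without the 1 EC cell with stromal UMIs, EC of library 2 had 277 CPM. HSPC had 37.4 CPM (31.2 to 44.4) and 37.1 CPM (30.7 to 44.5), over the empty droplets (14.7 and 23.0 CPM) in both libraries. Cdkn1c and Dlk1 were the only members over the empty droplets in HSPC. HSPC exceeded Eryb for Cdkn1c 50.4-fold and 39.9-fold, and exceeded Ery 1, the earliest erythroid subcluster, which had 4.15 and 2.58 CPM. In Eryb, 18 and 33 UMIs of Cdkn1c were counted, where free RNA at the largest share that Alb allows would give 23.9 and 26.0.

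Peg3, a zinc finger gene with a role in placental growth and maternal behaviour, had lower counts. It reached 130 CPM (103 to 161) and 84.0 CPM (65.2 to 106) in Hepa, and 38.2 and 26.5 CPM in EC. Hepa exceeded EC 3.40-fold and 3.17-fold. Plagl1, a zinc finger transcription factor known to act on other imprinted genes, had 58 and 120 UMIs over all kept cells. EC had 64.9 CPM (37.8 to 104) and 82.9 CPM (60.9 to 110) of Plagl1, in 11 of 20 and 16 of 26 cells, and blood cell types other than Mk had at most 4 UMIs each. In Hepa, Plagl1 had 6 UMIs in library 1 and 1 in library 2, and all 6 came from the 2 Hepa cells with stromal UMIs.

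Mest, a gene of mesoderm named for its expression in early mesenchyme, was highest in EC, at 5797 CPM (5509 to 6096) and 4579 CPM (4404 to 4758), a mean of 5188 ± 861 CPM (SD, n = 2 libraries). Every EC held it, with between 7 and 188 UMIs per cell in library 1 and between 10 and 309 in library 2. After thinning, 100% of EC in both libraries had a Mest UMI, against 0.305 and 0.351% of G, at a median depth of 13055 and 15745 UMIs in EC. Hepa, the leading type of 8 other members, had 23.4 and 2.47 CPM, not over the empty droplets (32.9 and 38.3 CPM). Of the 15 Mest UMIs of Hepa in library 1, 14 came from the 2 cells with stromal UMIs, and without them the level was 1.73 CPM. EC exceeded the next type, Mk, 7.40-fold (6.73 to 8.15) and 20.8-fold (18.2 to 24.0), and without the Mk cells with stromal UMIs 7.75-fold (7.0 to 8.60) and 56.2-fold (44.4 to 72.0). The level of Mest in HSPC was 0.58 and 2.24 CPM, below the empty droplets.

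Within the Mk cluster, the levels of these genes differed between 2 sets of cells divided by their stromal UMIs. In the 10 and 9 cells with at least 5 UMIs of stromal genes, Meg3 stood at 1116 and 2520 CPM, Cdkn1c at 1429 and 4100 CPM, and Dlk1 at 1080 and 1932 CPM. In the other 69 and 47 Mk cells, Meg3 stood at 0 and 2.26 CPM, Cdkn1c at 38.0 and 7.93 CPM, and Dlk1 at 13.7 and 15.9 CPM. The intervals of the pooled CPM of the sets did not overlap for these genes. The second set was near or below the empty droplets except for Cdkn1c in library 1. Single cells did overlap, since only 7, 7 and 6 of the 10 cells of library 1 had Meg3, Cdkn1c and Dlk1. In the second set of library 1, a cell with 2 stromal UMIs held 21 UMIs of the members other than Mest. Plagl1 showed the same split, with 268 and 466 CPM against 1.52 and 4.53 CPM, as did Peg3, with 384 and 443 CPM against 4.56 and 1.13 CPM. H19 had 804 and 932 CPM against 13.7 and 7.93 CPM, and Igf2 152 and 168 CPM against 3.04 and 0 CPM. In the cells with stromal UMIs, Cdkn1c and Peg3 were over Hepa (873 and 635 CPM, and 130 and 84.0 CPM). Plagl1 was over EC there (64.9 and 82.9 CPM). For these 3 genes, the intervals did not overlap in either library. Meg3 was over Hepa in library 2 only, where Hepa had 1845 CPM. The cells with stromal UMIs held 100 and 99.4% of the Meg3 UMIs of the cluster, 93.1 and 94.8% of those of Dlk1, and 72.2 and 55.6% of those of Grb10. In 6 of the 10 and 8 of the 9 cells, none of the 5 megakaryocyte markers, such as Pf4, was found. Of the 10 cells of library 1, 3 had no UMI of any member. The minimum of 5 stromal UMIs was chosen after the values had been seen, and whether these cells are 1 type, several, or pairs of cells was not tested.

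**Figure D2:**
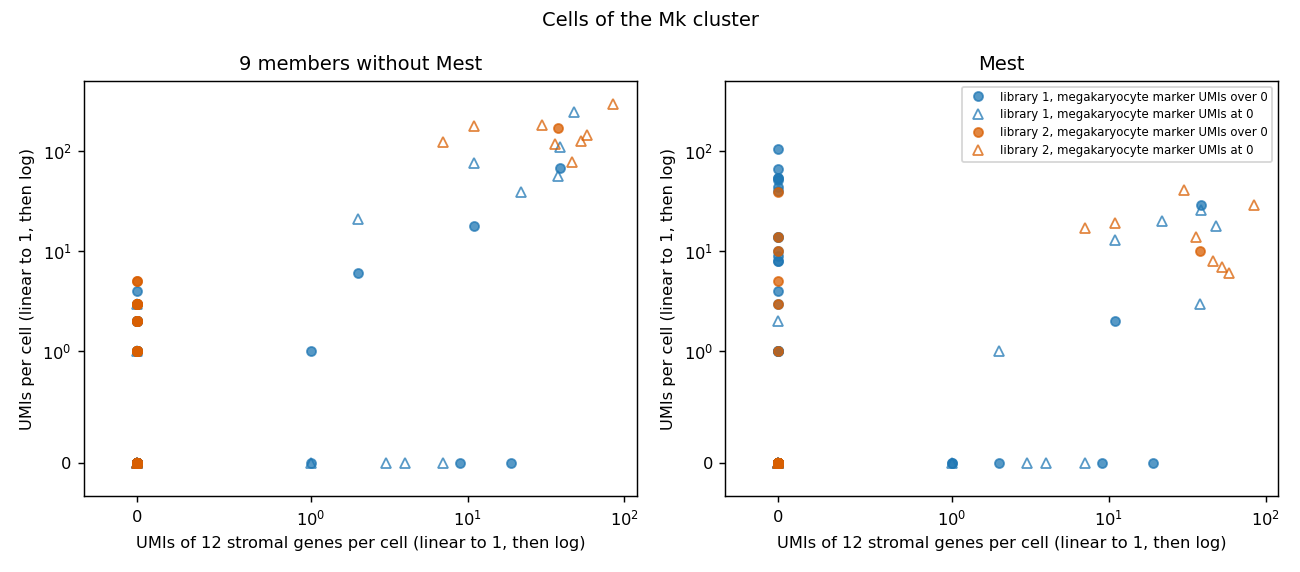
Each point is 1 cell of the Mk cluster, placed by its UMIs of 12 stromal genes (x axis) and by its UMIs of the 9 members other than Mest (left) or of Mest (right), on axes that are linear up to 1 and logarithmic above. Open triangles are cells with no megakaryocyte marker UMI, and the cells at the upper right of the left panel, most of them triangles, hold most UMIs of the 9 members, whereas Mest is also high in cells without a stromal UMI.

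Mest behaved differently from the other members in Mk. The cells with stromal UMIs held 18.4 and 67.7% of its UMIs, and the remaining Mk cells still had 748 CPM in library 1 (683 to 817) and, in library 2, 81.5 CPM (63.8 to 103), over the empty droplets in both. These UMIs came from 21 of 69 and 6 of 47 cells, with up to 106 and 39 in a cell. In library 2, 1 cell held 39 of the 72 UMIs, so the value there rested largely on that cell. Of the cells with Mest, 19 of 21 and 6 of 6 had megakaryocyte markers. Their summed marker level was lower than in the Mk cells without Mest (11715 against 20410 CPM in library 1 and 4680 against 17415 CPM in library 2). The library 2 sum includes the cell with 39 Mest UMIs, which had 3 marker UMIs among 57131. They were also shallower than those cells, with a median of 3545 against 6791 UMIs in library 1 and 5574 against 18433 in library 2. The libraries differed by a wide margin in the Mest CPM of these Mk cells, and the intervals did not overlap. Library 2 kept no cell under 4387 UMIs, so cells as shallow as the library 1 median of 3545 had no counterpart there. The part of this depth limit in the difference was not tested.

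Between HSPC and Eryb, 4 members (Igf2, Dlk1, Meg3 and Cdkn1c) were at least 2-fold higher in HSPC in both libraries, and none was at least 2-fold lower. Of all genes tested, 55.9% were higher by this rule and 6.9% lower. Over UMIs other than globin and mitochondrial genes, the same 4 members were higher, and Grb10 and Mest were at least 2-fold lower in HSPC. No share over all genes is given on that scale, so whether these calls are particular to the members was not tested. Mest had only 2 and 7 UMIs in HSPC, against 55 and 74 in Eryb, and lay below the empty droplets in both types. The scale matters because the median log2 ratio of HSPC to Eryb over all genes tested moved from 1.11 and 1.56 to 0.54 and 0.51 when globin and mitochondrial UMIs were left out. The median over the members was 0.31 and 1.13 on the first scale and 0.09 and 0.26 on the second.

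HSPC were then divided by the stem cell transcription factor genes Hlf and Mecom. Cells with a UMI of either numbered 87 and 76, and cells with neither 126 and 132. Those with Hlf or Mecom were slightly shallower, at a median of 14931 against 16568 and of 13067 against 15825 UMIs. H19 stood at 59.9 against 23.0 CPM in library 1 and at 110 against 45.1 CPM in library 2, a ratio of 2.61 (1.80 to 3.80) and 2.45 (1.85 to 3.25). Cdkn1c had a ratio of 2.64 (1.83 to 3.85) and 2.75 (1.88 to 4.07), at 60.7 against 23.0 CPM and 64.1 against 23.3 CPM. Igf2 (4.85 and 3.40) and Grb10 (2.69 and 2.72) were higher in the same cells in both libraries, with intervals that excluded 1, on counts of 4 to 15 UMIs. Dlk1 had a ratio of 1.34 (1.12 to 1.61) in library 1 and 2.40 (1.98 to 2.91) in library 2, while the share of cells with Dlk1 was 55.2 against 55.6% and 59.2 against 56.8%. Meg3 was higher in library 2, at 36.7 against 5.82 CPM, while its ratio of 2.1 (0.85 to 5.35) in library 1 did not exclude 1. In the cells with Hlf or Mecom, Dlk1 and Cdkn1c lay over the empty droplets in both libraries, whereas H19 lay near them in library 1 and Grb10 below them in both. Peg3 had 0 UMIs in these cells against 5 in the others in library 1, and 8 against 5 in library 2. Igf2r had 7 against 1 UMIs and 6 against 3. Mest and Plagl1 had at most 4 UMIs in a set. No share over all genes is given for this split, so it was not tested whether these ratios are particular to the members.

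**Figure D3:**
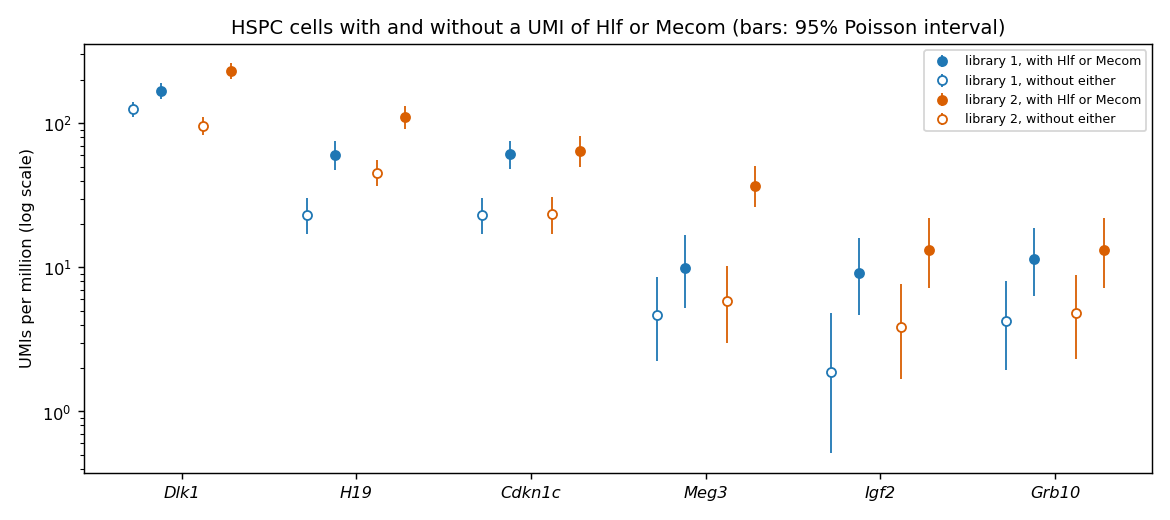
CPM (log axis) of 6 members in HSPC with a UMI of Hlf or Mecom (filled) and without either (open), with library 1 in blue, library 2 in orange and exact Poisson 95% intervals as bars. For the 6 members shown, each filled point lies over its open point, and the intervals of H19 and Cdkn1c do not overlap in either library.

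Along the erythroid lineage, the authors' table gives 6 subclusters, of which Ery 1 and Ery 2 make up the progenitors and Ery 3 to Ery 6 the erythroblasts. The share of UMIs from globin genes was 1.07 and 2.37% in Ery 1 and 58.1 and 78.5% in Ery 6. Between Ery 1 and Ery 6, 5 members (Dlk1, Grb10, Cdkn1c, Peg3 and Igf2r) were at least 2-fold lower in Ery 6 in both libraries and none was higher, where 74% of all genes tested were lower and 4.42% higher. Over UMIs other than globin and mitochondrial genes, 2 members (Grb10 and Igf2r) were lower and 3 (H19, Meg3 and Mest) were higher, beside 47.3 and 13.3% of all genes. In Ery 6, Meg3 had 8 and 6 UMIs and Mest 22 and 17, and both genes lay below the empty droplets. The largest share of free RNA that Alb allows in Ery 6 was 8.15 and 3.30% of UMIs. The empty droplets had 17.2 and 17.9 CPM of Meg3 and 32.9 and 38.3 CPM of Mest. In Ery 6, Meg3 stood at 1.41 and 0.61 CPM and Mest at 3.86 and 1.72 CPM. The part of free RNA in these counts was not tested. Over all genes tested, the median log2 ratio of Ery 6 to Ery 1 was -1.86 and -2.36 on the first scale and -1.04 and -1.03 on the second. The members had medians of -0.52 and -0.56, and of -0.15 and 0.16.

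In CPM over all UMIs, Grb10 was graded over these subclusters. In library 1, its CPM was 48.4 in Ery 1, 33.6 in Ery 2, 22.0 in Ery 3, 12.2 in Ery 4, 5.48 in Ery 5 and 5.97 in Ery 6. In library 2 it was 39.6, 31.8, 17.7, 7.28, 3.93 and 3.53 CPM in the same order. Each subcluster was lower than the one before it in both libraries with intervals of the ratio that excluded 1, except for Ery 5 and Ery 6, which could not be ranked. Ery 1 exceeded Ery 6 8.11-fold (5.72 to 11.8) and 11.2-fold (7.92 to 16.4), and exceeded HSPC 6.96-fold (4.62 to 11) and 5.16-fold (3.41 to 8.16). In CPM over all UMIs, the highest value of Grb10 in the blood lineages was thus in Ery 1, where it was over the empty droplets. On the scale without globin and mitochondrial UMIs, Grb10 was 50.2 and 41.6 CPM in Ery 1 and 14.8 and 17.1 CPM in Ery 6. EryP had 73.5 CPM (42.0 to 119) and 30.3 CPM (9.85 to 70.8) on that scale, from 16 and 5 UMIs. Ery 1 and EryP could therefore not be ranked there. Free RNA at the largest share that Alb allows would give 6.82 and 7.50 of the 34 and 35 Grb10 UMIs counted in Ery 6.

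In CPM, H19 was lowest at the start of the lineage. Its CPM was 15.0 and 13.7 in Ery 1, 35.5 and 32.3 in Ery 2, 51.2 and 38.4 in Ery 3, 44.1 and 29.7 in Ery 4, 31.2 and 21.9 in Ery 5, and 37.9 and 21.3 in Ery 6. Ery 3 exceeded Ery 1 3.42-fold (2.82 to 4.16) and 2.80-fold (2.28 to 3.47), while Ery 1 lay below HSPC. Per 1000 cells, the H19 UMIs numbered 395 and 354 in Ery 1, 585 and 612 in Ery 2, and 177 and 179 in Ery 6. Without globin and mitochondrial UMIs, H19 was instead highest in Ery 6, at 94.0 and 103 CPM against 15.5 and 14.4 CPM in Ery 1, and the same scale put EryP at 524 and 600 CPM. The direction between Ery 3 and Ery 6 therefore depended on the scale. Ery 1 was below Ery 6 on both CPM scales but above it per cell. Against Ery 3, Ery 1 was lower on both CPM scales, and against Ery 2 it was lower per cell. All 6 subclusters were below the empty droplets (64.3 and 67.9 CPM), yet free RNA at the largest share that Alb allows would give 29.9 and 22.2 of the 216 and 211 UMIs counted in Ery 6.

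**Figure D4:**
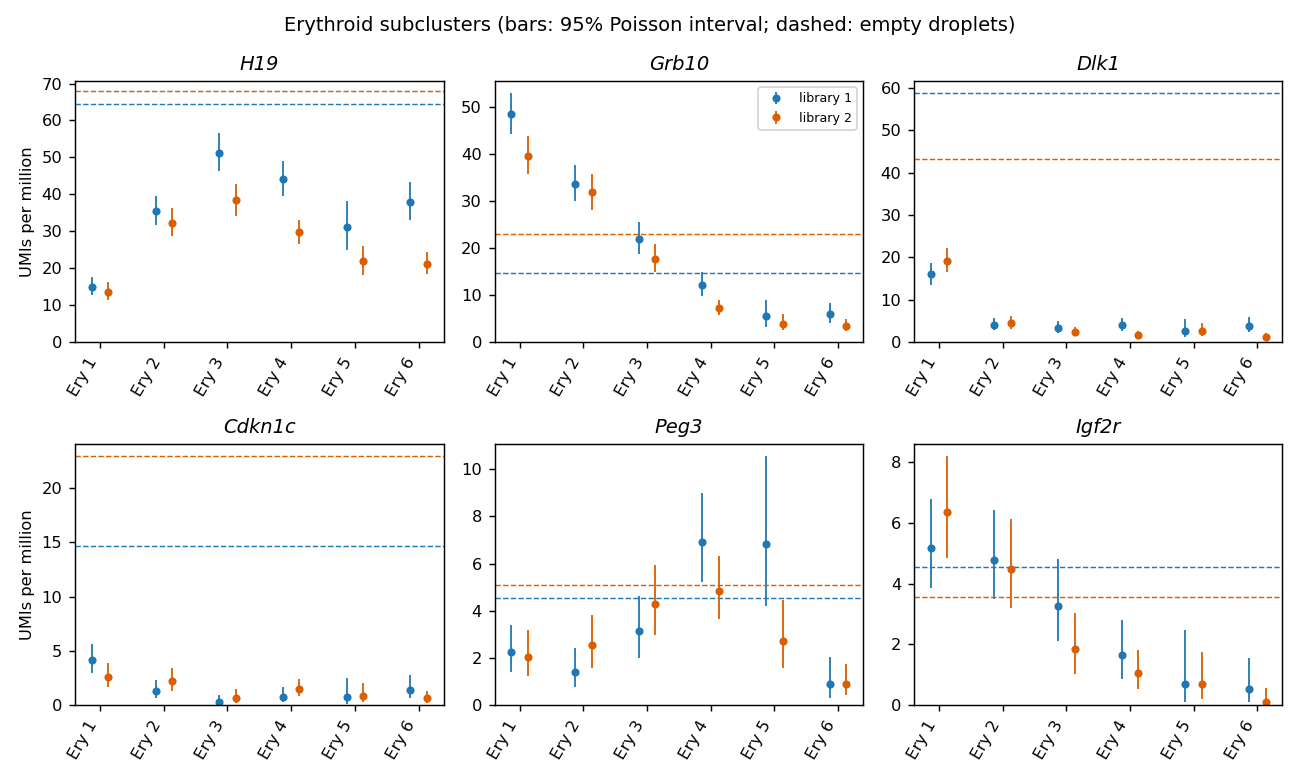
CPM (linear axes, each from 0) of 6 members in the erythroid subclusters Ery 1 to Ery 6, with library 1 in blue, library 2 in orange, exact Poisson 95% intervals as bars and the empty droplets of each library as dashed lines. Grb10 and Igf2r are highest in Ery 1, H19 in Ery 3 and Peg3 in Ery 4, in both libraries, with Ery 5 level with Ery 4 for Peg3 in library 1.

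Dlk1 was highest in the first erythroid subcluster. It stood at 16.0 and 19.3 CPM in Ery 1 and at 4.14 and 4.48 CPM in Ery 2. In Ery 6, its 22 and 13 UMIs did not exceed the 27.3 and 14.2 that free RNA could give. Cdkn1c had lower counts, with 41 and 24 UMIs in Ery 1 and 8 and 6 in Ery 6, where free RNA could give 6.82 and 7.50. Ery 1 exceeded Ery 2 for Cdkn1c 3.18-fold (1.64 to 6.64) in library 1, whereas the ratio of 1.18 (0.62 to 2.29) in library 2 did not exclude 1. Igf2r had 5.17 and 6.35 CPM in Ery 1, and 3 and 1 UMIs in Ery 6, a ratio of 9.80 (3.17 to 49.1) and 62.9 (10.9 to 2528).

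Peg3 had its highest CPM past the start of the lineage. Its CPM was 2.23 and 2.05 in Ery 1, 6.91 and 4.85 in Ery 4, and 0.88 and 0.91 in Ery 6. Ery 4 exceeded Ery 1 3.10-fold (1.86 to 5.34) and 2.37-fold (1.39 to 4.23), and exceeded Ery 6 7.87-fold (3.18 to 25.2) and 5.34-fold (2.62 to 12.3). Ery 4 and Ery 5 could not be ranked in library 1, at 6.91 and 6.85 CPM, and without globin and mitochondrial UMIs Ery 5 had the higher value there, 14.5 against 11.6 CPM. Between Ery 1 and Ery 6, its ratio of 2.54 (0.94 to 8.57) and 2.25 (0.97 to 5.65) did not exclude 1, although both passed 2-fold. Per 1000 cells, Ery 1 held 58.7 and 52.9 Peg3 UMIs and Ery 4 held 40.5 and 46.6, so the peak was present in CPM and not per cell.

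Several members occurred together in the same cells. At least 5 of the 10 members were found in 22 of 33 and 22 of 31 Hepa, in 16 of 20 and 21 of 26 EC, and in 7 of 79 and 9 of 56 Mk cells, and in 0 of 69 and 0 of 47 Mk cells without those with stromal UMIs. Among HSPC, 3 of 213 and 9 of 208 cells had at least 5, and no cell of Eryb, EryP, G or Mo/KC did. After thinning to 3600 UMIs, 18 of 24 and 20 of 31 Hepa, 5 of 19 and 8 of 26 EC, and no HSPC had at least 5. In Hepa, Dlk1 and Meg3 were found together in 19 and 25 cells, Dlk1 alone in 13 and 4, and Meg3 alone in 0 and 2. In HSPC, 34 and 42 cells had both H19 and Cdkn1c.

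Other imprinted genes led in several cell types. Of 50 further genes that are imprinted in some mouse tissue, 48 were in the files and 26 passed the minimum of 50 UMIs in each library. Of these 26, 7 were highest in EC in both libraries, 3 in Hepa, 3 in HSPC, and 1 each in Mk, Ery and EryP, beside the shares of 11.9% for EC and 6.72% for Hepa over all genes. Those highest in EC were led by Cd81, a tetraspanin gene near Igf2 and Cdkn1c (1019 and 914 CPM), Gatm, a creatine synthesis gene (458 and 341 CPM), and Asb4, an ankyrin repeat gene (114 and 72.3 CPM). Those highest in Hepa were Phlda2, a gene that restrains placental growth (147 and 104 CPM), Dhcr7, a cholesterol synthesis gene (116 and 105 CPM), and Slc38a4, an amino acid transporter gene (92.2 and 56.8 CPM). In HSPC, the gene of the signal peptide peptidase H13 (228 and 204 CPM) and the noncoding RNA Kcnq1ot1 (144 and 137 CPM) led. Kcnq1ot1 had nearly the same level in Hepa (142 and 136 CPM), and whether HSPC and Hepa differed was not tested. Between Ery 1 and Ery 6, 18 of the 26 were at least 2-fold lower and 2 (Zrsr1 and Ddc) higher, where 74 and 4.42% of all genes were. Their median log2 ratio was -2.07 and -2.34, beside -1.86 and -2.36 over all genes.

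Of 22 genes of the insulin-like growth factor axis, 13 were tested. The binding protein genes were divided between cell types, with Igfbp4 at 1904 and 1500 CPM and Igfbp7 at 282 and 254 CPM in EC, and Igfbp1 at 159 and 65.4 CPM in Hepa. The ligand gene Igf1 was highest in Mo/KC, at 88.4 and 102 CPM, a type with no Igf2 UMI. Its receptor gene Igf1r was highest in Mk at 58.4 and 47.3 CPM. G followed with 47.6 and 39.0 CPM, and Ery had 22.8 and 21.1 CPM. The Mk value includes the cells with stromal UMIs, and whether Mk and G differed was not tested. Igf2bp1, which encodes a protein that binds Igf2 and H19 RNA, was highest in EC, at 111 and 74.1 CPM. It had 100 and 53.1 CPM in Hepa, 75.4 and 64.3 CPM in HSPC and 51.7 and 44.8 CPM in Ery. In all, 5 of the 13 were highest in EC, 2 in Hepa and 2 in Mo/KC, where 11.9, 6.72 and 6.7% of all genes tested were. Between Ery 1 and Ery 6, 8 were at least 2-fold lower and 1, Foxo3, a transcription factor gene of red cell maturation, was higher, where 74 and 4.42% of all genes were.

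Likeness between genes was described by the Pearson correlation of log2(CPM + 1) over the 9 cell types, taking the lower value of the libraries, among the 9161 genes with at least 100 UMIs in each library. The points share libraries, depth and the few cells of Hepa and EC, and genes that are high in Hepa resemble each other by that alone. For the 9 members with enough UMIs, the 3 nearest genes made up 27 places, of which 11 were taken by other members. Meg3 and Cdkn1c were nearest to each other (0.96 and 0.97), and Peg3 was nearest to Meg3 (0.94 and 0.95). Igf2 was nearest to Tmem150a, H19 to Cyb5a, Grb10 to Pla2g6 and Igf2r to Igf2. Dlk1, nearest to Gstz1, Bex1 and Impact (0.84 to 0.93), and Mest, nearest to Ehd3, Sparc and Sdpr (0.91 to 0.98), had no member among their nearest 3. Cells of the Mk cluster with stromal UMIs enter these values.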

How the data were processed

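The authors deposited raw UMI counts per gene and barcode for all and for called barcodes of each library, without normalization, and a table of cell types and subclusters. According to the labels and methods, they used bcl2fastq 2, Cell Ranger 2.1.1, Seurat 3.2.0 and mm10, whereas the matrix header of library 1 names 3.0.0. From the counts, UMIs of the 5480 and 5057 kept cells were summed per cell type and library. A call required a 2-fold difference, or an interval excluding 1, in both libraries. Shares of cells used exact thinning to 3600 UMIs, and 3 counts served as the limit where none was seen. The members and lists were chosen with earlier results of these data known. Named are all members, up to 5 list genes with the highest CPM per statement, and the 3 nearest genes by correlation. No further doublets were removed, and scrublet scores (scanpy 1.11.5) served as an alternative. Other alternatives were single libraries, stricter cell filters, other scales, folds, empty droplets and thinning depths. Python 3.11.15, numpy 2.4.6, scipy 1.17.1, pandas 2.3.3 and matplotlib 3.10.9 were used, and the scripts were tested on simulated data.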

Additional observations from a re-analysis of the deposited data

Results flagged for a closer look

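Among the uncalled barcodes of library 2, 3311 held at least 1000 UMIs and 200 genes, and lay outside every comparison above. Dlk1 stood at 55.1 CPM in them against 43.4 CPM in the empty droplets, a ratio of 1.27 (95% CI 1.0 to 1.63). Mest stood at 49.7 CPM against 38.3 CPM, a ratio of 1.30 (1.01 to 1.69). Both were noted because they exceeded the level of the empty droplets, by a margin close to the counting error. The Mest UMIs were unevenly spread, with 81 barcodes that held any and 21 that held at least 5. Alb stood at 210 CPM against 144 CPM in the same barcodes, and 37 of them held at least 5 Alb UMIs. In library 1, 168 barcodes met the same minimum, and Dlk1 and Mest stood at 2.53 CPM in them, from 1 UMI each. The shallowest kept cell held 504 UMIs in library 1 and 4387 in library 2, so cells between these depths entered the comparisons in library 1 only. The identity of the uncalled barcodes was not tested.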

How the results depend on the processing

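The count of 8 members highest in Hepa held under every alternative run, which were each library alone, stricter cell filters, scrublet scores, other scales and the removal of cells with stromal UMIs. None of these alternatives set the Mk cells with stromal UMIs as a type of their own. In those cells, Cdkn1c and Peg3 stood over Hepa in both libraries. The count of 5 members lower in Ery 6 than in Ery 1 became 3 (Dlk1, Grb10 and Igf2r) when only cells with 1000 or more genes and less than 10% mitochondrial UMIs were kept, a filter that leaves 177 and 134 Ery 6 cells, and 2 over UMIs other than globin and mitochondrial genes. With each library alone, it ranged from 5 to 6, the count higher in HSPC than in Eryb from 4 to 6, the pairs over the empty droplets from 30 to 31, and the members with a UMI in at least 50% of cells from 6 to 7. That last count became 10 without thinning and 4 when a cell needed at least 2 UMIs of the gene. Every alternative for the CPM of a member in its leading type stayed within 1 SD of the libraries. For each library alone this was fixed in advance, since either of 2 values always lies within 1 SD of their mean. Removal by scrublet scores left all 10 of these CPM values unchanged, so it could not address doublets among the Hepa and EC cells. No paired analysis was possible because the libraries form 1 group and no test was made. The small number of Hepa and EC cells limits their values, since 1 cell could hold most UMIs of a gene, as for Dlk1 in EC of library 2.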
